A study of Homo sapiens with 6 samples.

Results

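The comparison described here set SBC-3 cells given siSFPQ-3, an siRNA against SFPQ, against SBC-3 cells given a control siRNA (siCtrl). It used 4 of the 6 libraries of the series, 2 for siSFPQ-3 and 2 for siCtrl, chosen by their treatment labels. SBC-3 is an established human small cell lung cancer line with a wild-type (WT) genotype in the labels, and no group carried any other alteration. All groups received siRNA at 10 nM with a lipid reagent and were taken 72 h later. The other 2 libraries, from cells given siSFPQ-2, a different siRNA against the same gene, are used only to show where the siRNAs differed. The labels do not tie the libraries of 1 group to different cultures, so the p-values below measure the spread between these libraries, which may be technical. All libraries come from 1 cell line.

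SFPQ is a nuclear protein that binds RNA and DNA and, with its relatives NONO and PSPC1, is a core component of paraspeckles, nuclear bodies that form on the long non-coding RNA NEAT1. It is known for roles in transcription, splicing, DNA repair and the handling of primary microRNA transcripts, the long RNAs from which microRNAs are cut. PRO-seq labels RNA as polymerases lengthen it after cells are permeabilized, so a value reflects transcription in progress rather than the amount of mature RNA. A microRNA silences messages that pair with its seed, bases 2 to 8 of the mature form, and microRNAs that share a seed are grouped as a family.

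The microRNAs below lie in host transcripts whose nascent reads changed with siSFPQ-3. Most are shown because their hosts carry members of a shared seed family, and miR-21 for the change of its host VMP1; microRNAs of other changed hosts, such as PDE2A and LPP, are not printed. Sequences were taken from RefSeq (GRCh38.p14, the same assembly as hg38), and the capitals mark the seed. An entry was found by name for 69 of 91 listed hairpins in 45 of 61 listed hosts. These counts include doubtful pairings, none of them printed. The same hsa-miR-93-5p on chromosome 7 stands under both MCM7 and MIR9-3HG, and R3HDM1 was given hsa-miR-1281 on chromosome 22.
hsa-miR-17-5p: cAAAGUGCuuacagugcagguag
hsa-miR-20a-5p: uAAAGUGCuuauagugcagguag
hsa-miR-18a-5p: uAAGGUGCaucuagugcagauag
hsa-miR-19a-3p: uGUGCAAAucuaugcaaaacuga
hsa-miR-19b-3p: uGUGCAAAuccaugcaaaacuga
hsa-miR-92a-3p: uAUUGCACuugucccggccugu
hsa-miR-181a-5p: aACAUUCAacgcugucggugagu
hsa-miR-181b-5p: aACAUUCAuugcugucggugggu
hsa-miR-21-5p: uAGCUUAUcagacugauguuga
hsa-miR-301a-3p: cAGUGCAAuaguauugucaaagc
hsa-miR-454-3p: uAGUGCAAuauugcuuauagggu

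The first 6 come from MIR17HG, on the plus strand, from hsa-miR-17-5p at chr13:91350618-91350640 to hsa-miR-92a-3p at chr13:91351361-91351382. Within it, hsa-miR-17-5p and hsa-miR-20a-5p share a seed, as do hsa-miR-19a-3p and hsa-miR-19b-3p. The miR-181 pair shares a seed and is encoded at separate loci, in MIR181A1HG on the minus strand (hsa-miR-181a-5p at chr1:198859108-198859130) and in MIR181A2HG on the plus strand (chr9:124692480-124692502). hsa-miR-21-5p lies at chr17:59841273-59841294 on the plus strand, near the end of VMP1. hsa-miR-301a-3p (chr17:59151149-59151171) and hsa-miR-454-3p (chr17:59137787-59137809), on the minus strand within SKA2, share a seed with each other. The reads measure the hosts and not the mature microRNAs.

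Reads were recovered from the normalized values through the value of 1 read and summed over the features. They came to 18475158 and 12072813 in the siCtrl libraries and 13323238 and 15029609 in the siSFPQ-3 libraries. Reads outside these features are not in the totals. Of 25827 features, 21773 had a normalized read count of at least 10 in at least 2 libraries and were tested. The siSFPQ-3 libraries were less alike than the siCtrl libraries: of the 10887 features at or above the median level, 71 differed by more than 2-fold between the siSFPQ-3 libraries and 10 between the siCtrl libraries. The 2 largest features took 15.2 and 10.9% of the normalized reads in siCtrl and 7.79 and 13.9% with siSFPQ-3. Among defining genes of small cell lung cancer, YAP1 had normalized reads of 3312 and 2856 in siCtrl and 5078 and 5431 with siSFPQ-3, SYP between 187 and 283 in the 4 libraries, and NEUROD1 at most 31.0. CHGA lay between 0 and 4.43, below the filter, and INSM1, NCAM1 and GRP were not analysed here, so the labelled cell type was not checked on those genes. Values are the deposited normalized reads, tests are limma's with Benjamini-Hochberg adjustment over all 21773 features at a threshold of 0.05, and each log2 fold change is that of value + 1, so changes of low genes come out too small. "Rose" and "fell" are used only of features past that threshold.

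SFPQ itself (chromosome 1, 35176380 to 35193145, hg38) had normalized reads of 2294 and 2435 in siCtrl and 1922 and 2466 with siSFPQ-3. The groups overlapped, with a log2 fold change of -0.12 (SE 0.13, limma adjusted p = 0.491). Since siRNAs degrade finished messages, these reads test neither the depletion of SFPQ nor the labelling. NONO, the usual dimer partner, had 857 and 887 against 878 and 871 normalized reads (log2 fold change 0.00, adjusted p = 0.979, limma), a difference smaller than the spread between libraries.

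PSPC1, the third family member, had 1699 and 1581 normalized reads in siCtrl and 1928 and 2069 with siSFPQ-3, and did not pass the threshold (log2 fold change 0.29, limma adjusted p = 0.0621), although the groups did not overlap. NEAT1, the paraspeckle scaffold (chromosome 11, 65422798 to 65445540), had 1875 and 2019 in siCtrl and 2770 and 3370 with siSFPQ-3. Both siSFPQ-3 libraries lay above both siCtrl libraries, and NEAT1 rose by 0.65 on the log2 scale (SE 0.13, limma adjusted p = 0.00265). Of 34 paraspeckle genes, 4 rose and 7 fell, against 23.0% and 20.4% of all tested features. The RNA-binding protein gene RBM14 fell from 988 and 978 to 621 and 664, with both siSFPQ-3 libraries below both siCtrl libraries. The median log2 fold change of the list was -0.08, beside -0.02 over all features. Without the second siCtrl library 2 rose and 3 fell, and without the first siSFPQ-3 library 3 rose and 4 fell.

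Over all features, 5007 were higher with siSFPQ-3 and 4436 lower, 3713 and 2797 of them by at least 1.5-fold. Scaling every library to 1 total turned the balance, to 4307 higher and 4900 lower. Without the first siCtrl library 2082 were lower, and without the second 2127. Protein-coding genes leaned upwards, with 26.4% higher and 20.2% lower of 14020, and long non-coding RNAs downwards, with 18.3% and 24.3% of 5114. Of 107 small nuclear RNA genes, 4 were higher (3.74%) and 13 lower (12.1%), and of 153 small nucleolar RNA genes 7 (4.58%) and 10 (6.54%). Each of these shares was below that of all tested features, 23.0% higher and 20.4% lower.

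The largest rises were taken from called genes with a mean over the 4 libraries at or above the median of 288 normalized reads. A gene could reach that level through the siSFPQ-3 libraries alone, so low siCtrl values follow in part from the choice. Genes below it, such as IL1A, were left out even where they rose more. TNFRSF9, a costimulatory receptor of the TNF receptor family (chromosome 1, 7915871 to 7940839), had 43.8 and 53.2 normalized reads in siCtrl and 876 and 1486 with siSFPQ-3. Its mean went from 48.5 ± 6.60 to 1181 ± 431 (SD, n = 2 each), a log2 fold change of 4.53 (SE 0.29, limma adjusted p = 1.73e-06). The lower siSFPQ-3 library was far above the higher siCtrl library.

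PTPRB, a receptor phosphatase best known from blood vessels, had 99.6 and 123 normalized reads in siCtrl and 1987 and 2332 with siSFPQ-3 (log2 fold change 4.27). BDKRB2, the bradykinin receptor gene, had 27.9 and 39.9 against 428 and 798 (log2 fold change 4.09). CREB5, a bZIP transcription factor gene, had 93.2 and 103 against 1452 and 1833 (log2 fold change 4.04). Each of these 3 genes was high in both siSFPQ-3 libraries, and BDKRB2 differed the most between them.

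ITGA2, a collagen receptor subunit gene, had 196 and 186 normalized reads in siCtrl and 2359 and 3871 with siSFPQ-3. CNTNAP2, a neuronal adhesion gene of very long span (chromosome 7, 146116801 to 148420998), had 265 and 250.4 against 3756 and 3687. RUNX2, the transcription factor of bone formation, had 176 and 171 against 2447 and 2515 (log2 fold change 3.83, limma adjusted p = 2.37e-08). The siSFPQ-3 libraries were close to each other for CNTNAP2 and RUNX2 and further apart for ITGA2.

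DUSP6, the phosphatase that switches off ERK, reached the highest level of the 15 largest rises, from 488 and 389 to 5198 and 6316 normalized reads (log2 fold change 3.71). The others of the 15 were ANO3, COL13A1, A1CF, the inflammatory caspase gene CASP4, HKDC1, ZNF608 and NCOA7, with log2 fold changes from 3.64 to 4.02. Of the 15, 9 span more than 100 kb, as did 4 of the 15 largest falls. Among 13576 protein-coding genes with a RefSeq span, 1998 span 100 to 300 kb and 480 at least 300 kb. All 15 rises were also called with siSFPQ-2, a comparison that shares the siCtrl libraries. In that comparison 21.2% of all features rose and 17.9% fell.

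**Figure D1:**
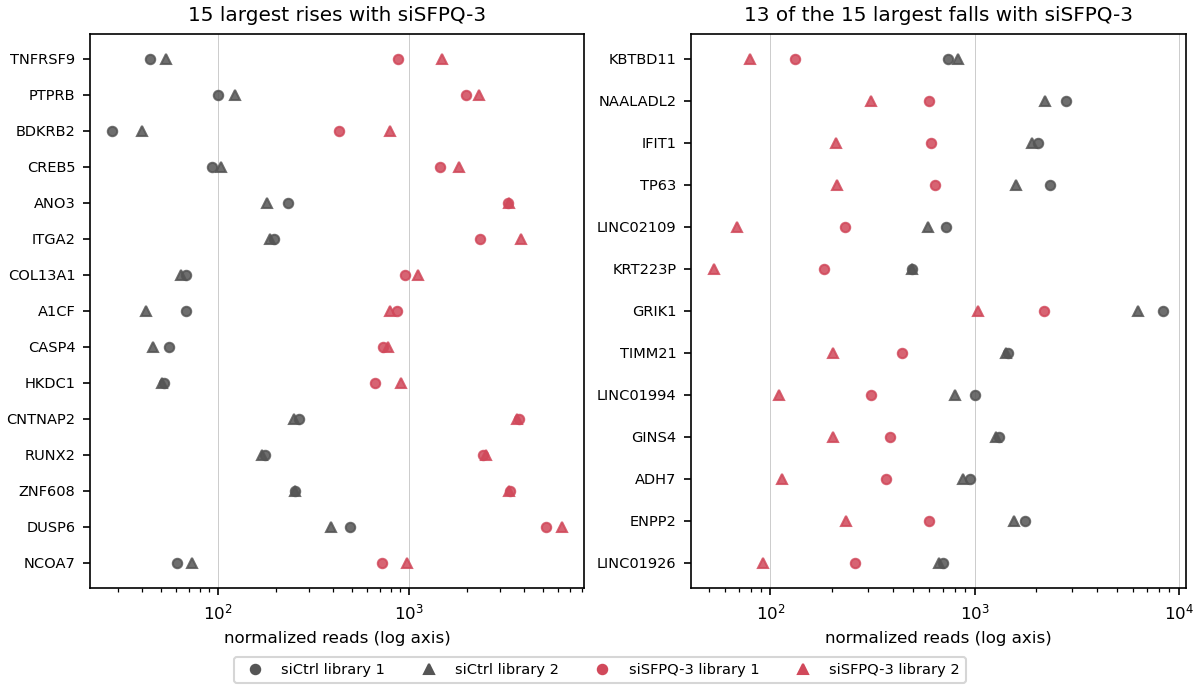
Normalized reads (log axis) of the 15 genes with the largest rise and of 13 of the 15 with the largest fall with siSFPQ-3 (antisense genes are not drawn), chosen among called genes at or above the median level, with 1 point per library. In every gene both siSFPQ-3 libraries lie on one side of both siCtrl libraries, as the choice required (36.2% of all features lay wholly above and 37.6% wholly below), and in all 13 falls drawn the second siSFPQ-3 library is the lower.

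The largest falls were smaller than the largest rises and less even between libraries. KBTBD11 had 738 and 828 normalized reads in siCtrl and 131 and 79.0 with siSFPQ-3, a log2 fold change of -2.93 (SE 0.23, limma adjusted p = 6.79e-06). TP63, the p53 family member of basal epithelia (chromosome 3, 189596746 to 189897276), had 2349 and 1599 against 638 and 213 (log2 fold change -2.39, SE 0.38). IFIT1, an interferon-induced gene, had 2042 and 1921 against 611 and 209.6 (log2 fold change -2.46). In all 3 the second siSFPQ-3 library was the lower, and for TP63 and IFIT1 the groups were still well apart.

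GRIK1, a kainate receptor subunit gene, had the highest level among the falls, at 8394 and 6308 normalized reads in siCtrl and 2184 and 1043 with siSFPQ-3 (log2 fold change -2.27). GINS4, a subunit of the replicative helicase, had 1318 and 1269.5 against 385 and 202 (log2 fold change -2.21). ENPP2, which encodes the enzyme autotaxin, had 1765 and 1556 against 598 and 234 (log2 fold change -2.14). NAALADL2, ADH7, TIMM21, KRT223P, ID2-AS1 and 3 LINC genes (LINC02109, LINC01994 and LINC01926) were also among the 15, with log2 fold changes from -3.05 to -2.14.

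In all 15 falls the second siSFPQ-3 library was below the first, in 12 of them by more than 2-fold, whereas the second was above the first in 12 of the 15 rises. The siSFPQ-2 libraries showed the same order in TP63, at 768 and 622, and in IFIT1, at 563 and 293. The share of reads in the 2 largest features was also higher in the second siSFPQ-3 library (13.9% against 7.79%), and its part in this order was not tested. Whether counting used strand is not stated in the labels or headers, so the values of ID2-AS1, an antisense gene, are uncertain. All 15 also fell with siSFPQ-2.

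Gene span went with the direction of change. Of 13576 protein-coding genes with a RefSeq span, those under 10 kb leaned downwards (13.3% higher and 31.9% lower of 2872, median log2 fold change -0.25). Those of 10 to 30 kb had a median of -0.10 and those of 30 to 100 kb one of 0.11. Those of 100 to 300 kb leaned upwards most, with 51.6% higher and 8.51% lower of 1998 and a median of 0.37.

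Above 300 kb, 43.3% were higher and 15.2% lower of 480, with a median of 0.25. The medians kept this order up to 300 kb in each siSFPQ-3 library, from -0.30 to 0.42 in the first and from -0.19 to 0.32 in the second. Long genes also had more reads, with a median of 1037 normalized reads at 100 to 300 kb against 231 under 10 kb. Among genes with a mean between 300 and 1000 normalized reads the medians were -0.28 under 10 kb, 0.31 at 100 to 300 kb and 0.30 above 300 kb. At that level 47.1% were higher and 9.93% lower at 100 to 300 kb, and 47.6% and 20.2% above 300 kb.

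**Figure D2:**
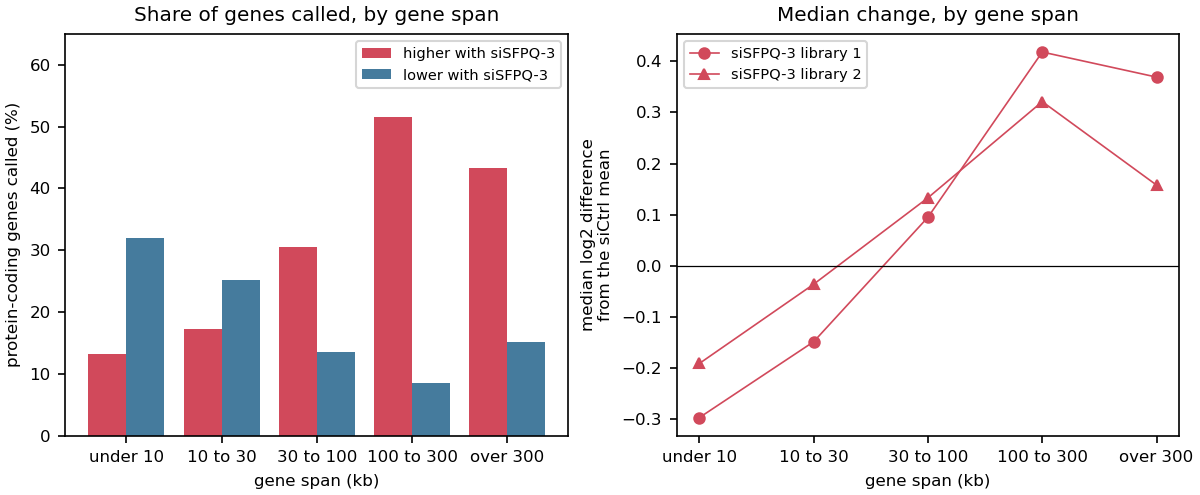
Left, the percentage of protein-coding genes called higher or lower with siSFPQ-3 in 5 classes of gene span (kb). Right, the median log2 difference of each siSFPQ-3 library from the siCtrl mean in the same classes; the share called higher is largest, at 51.6%, and the median highest in both libraries at 100 to 300 kb.

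Many genes of DNA replication and fewer of cell division fell with siSFPQ-3. Of 45 E2F and S phase genes, 0 rose and 32 fell (median log2 fold change -0.67), against 23.0% and 20.4% of all features. The flap endonuclease gene FEN1 had 381 and 424 normalized reads in siCtrl and 172 and 161 with siSFPQ-3. PCNA, the sliding clamp of DNA polymerase, fell from 567 and 514 to 287 and 318, and the transcription factor gene E2F1 from 583 and 574 to 313 and 315. In these 3 genes the siSFPQ-3 libraries were close to each other and below both siCtrl libraries. The helicase genes MCM7 (log2 fold change 0.01, limma adjusted p = 0.943) and MCM2 (-0.34, adjusted p = 0.0692, limma) did not pass. In bulk libraries such as these, fewer cells in a phase of the cycle and less nascent RNA per cell cannot be told apart. Without the first siCtrl library 17 of the list fell, and without the second 15.

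Of 40 mitotic genes, 0 rose and 19 fell (median -0.50). The mitotic kinase gene CDK1 had 957 and 959 normalized reads in siCtrl and 486 and 417 with siSFPQ-3 (log2 fold change -1.09), and AURKA fell from 628 and 589 to 348 and 338. Cyclin B1, CCNB1, fell from 638 and 606 to 437 and 379. The groups did not overlap for these genes. The number that fell was 6 without the first siCtrl library, 4 without the second and 9 without the second siSFPQ-3 library.

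Of 50 replication-dependent histone genes, 0 rose and 40 fell (median -0.84), with medians of -0.60 in the first and -1.22 in the second siSFPQ-3 library. H2BC9 had 726 and 665 normalized reads in siCtrl and 252 and 162 with siSFPQ-3, and H2AC11 had 1433 and 1346 against 725 and 576. The value of any 1 histone gene is uncertain because their sequences are nearly the same. Without the first siCtrl library 25 fell.

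Of 41 genes of DNA double-strand break repair, 4 rose (9.76%) and 12 fell (29.3%), beside 23.0% and 20.4% of all features. The end-joining gene XRCC4 rose from 627 and 529.5 normalized reads to 2565 and 3088 (log2 fold change 2.29), and the Fanconi anaemia gene FANCL rose by 1.34. XRCC3, of homologous recombination, fell from 1128 and 1049 to 503 and 435. The falls numbered 3 without the first siCtrl library and 5 without the second. Of 77 ribosomal protein genes, 0 rose and 24 fell (median -0.23), such as RPL36, with 1121 and 1014 normalized reads in siCtrl and 526 and 607 with siSFPQ-3. Without either siCtrl library or the first siSFPQ-3 library 15 ribosomal protein genes fell in each case, and without the second siSFPQ-3 library 36.

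Inflammatory genes under control of NF-kB, a transcription factor family of immune and stress signalling, had the largest share of rises among the signalling lists. Of 27 features, 23 rose and 2 fell (median 0.99, beside -0.02 over all features). Among cytokine genes, IL6 had 27.9 and 32.1 normalized reads in siCtrl and 287 and 293 with siSFPQ-3 (log2 fold change 3.23). IL1A had 6.38 and 6.65 against 303 and 614 (log2 fold change 5.85), and CXCL8, the neutrophil chemokine gene, 1890.4 and 1741 against 4268 and 5411. Each was high in both siSFPQ-3 libraries, with IL1A differing the most between them.

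Of the NF-kB subunit genes, NFKB1 rose from 856 and 853 normalized reads to 3236 and 4667 and RELB from 231 and 312 to 948 and 1559. The feedback inhibitor gene TNFAIP3 rose from 139 and 117 to 743 and 1463, and NFKBIA, which encodes the inhibitor that holds NF-kB in the cytoplasm, from 604 and 701 to 979 and 1364. The second siSFPQ-3 library was the higher for all of these, and both were above both siCtrl libraries. TNFAIP2 fell by 0.96 and the growth factor gene CSF1 by 0.55.

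Of 24 TNF superfamily and caspase genes, 10 rose (41.7%) and 3 fell (12.5%), beside 23.0% and 20.4% of all features. The OX40 ligand gene TNFSF4 had 26.3 and 31.0 normalized reads in siCtrl and 499 and 477 with siSFPQ-3 (log2 fold change 4.05), and TNFSF13B fell from 119.5 and 83.1 to 40.9 and 24.3. Without either siCtrl library 1 fell. Of 26 interferon-stimulated genes, 11 rose (42.3%) and 5 fell (19.2%). DDX58, which encodes a sensor of viral RNA, rose from 212 and 175 to 453 and 542, while IFIT1 and its relative IFIT5 fell. The rises numbered 6 without the first siCtrl library and 7 without the second, with 2 and 3 falls.

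Of 36 immediate early and ERK feedback genes, 21 rose and 4 fell (median 0.43). SPRY2, an inhibitor of receptor tyrosine kinase signalling, had 495 and 522 normalized reads in siCtrl and 1479 and 1520.1 with siSFPQ-3, beside DUSP6 above. DUSP2 fell by 0.99 and MYC from 2008 and 2156 to 1422 and 1405, with no overlap of the groups. Falls numbered 2 without either siCtrl library. Among 28 targets of p53 there were 14 rises (50%) and 5 falls (17.9%), beside 23.0% and 20.4% of all features. PMAIP1, which encodes the pro-apoptotic protein NOXA, rose from 102 and 99.7 to 447 and 508, and DDB2, of nucleotide excision repair, fell by 0.60. The p53 targets counted 9 rises and 2 falls without the first siCtrl library, 6 and 3 without the second, and 12 and 3 without the first siSFPQ-3 library; without the second they counted 10 and 3.

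Most genes of cell-matrix adhesion rose. Of 33 integrin, collagen and laminin genes, 26 rose and 2 fell (median 1.36). ITGAV, the alpha subunit of vitronectin receptors, had 1018 and 942 normalized reads in siCtrl and 4711 and 5226 with siSFPQ-3 (log2 fold change 2.34). ITGB1, the beta subunit shared by most collagen and fibronectin receptors, had 1278 and 1166 against 3129 and 3309.7. ITGA3, of laminin receptors, had 245 and 233 against 1048 and 1379. The rises in this list were spread over receptor subunits and matrix proteins, and for each of the 3 named the groups were well apart.

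Among the matrix genes, COL13A1 had 67.7 and 64.3 normalized reads in siCtrl and 957 and 1116 with siSFPQ-3, and COL1A1 had 227 and 202 against 370.0 and 549.9. COL18A1 fell from 5307 and 5399 to 3441 and 3176. COL5A1 (log2 fold change -0.37) lost its call without either siCtrl library, without the second siSFPQ-3 library and by DESeq2 (adjusted p from 0.0662 to 0.285), so that 1 of the list fell in each of those left-out fits. The number of rises was 26 with any 1 of the 4 libraries left out.

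The TGF-beta response list had 31 tested genes, of which 19 rose and 3 fell (median 0.68). N-cadherin, CDH2, had 1231 and 1091 normalized reads in siCtrl and 6454 and 6927 with siSFPQ-3, PMEPA1, a feedback inhibitor, 125 and 134 against 1111 and 1602, while ID2, an inhibitor of bHLH factors, fell from 1267 and 1334 to 578 and 522. Among 28 targets of YAP and TEAD factors, 16 rose and 1 fell (median 0.43). CRIM1 had 2779.8 and 2930.1 against 8458 and 8137, and the fall of RBMS3 (log2 fold change -0.77) was not called without either siCtrl library or without the second siSFPQ-3 library (adjusted p from 0.0582 to 0.0791, limma). YAP target falls numbered 3 without the first siSFPQ-3 library.

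Stress and metabolic lists were mixed. Of 23 ATF4 stress genes, 4 rose (17.4%) and 9 fell (39.1%), beside 23.0% and 20.4% of all features. The cystine transporter gene SLC7A11 had 251 and 173 normalized reads in siCtrl and 1442 and 1319.6 with siSFPQ-3, while DDIT4, an inhibitor of mTORC1, fell from 1979 and 1979.6 to 894 and 829 and the serine synthesis gene PSAT1 from 1729 and 1361 to 736 and 549.9. Falls numbered 5 without the first siCtrl library and 4 without the second, where 2 rose. Of 23 unfolded protein response genes, 3 rose and 8 fell, EDEM1 upwards by 1.24 and SDF2L1 downwards by 1.27. Of 18 heat shock genes, 2 rose (11.1%) and 3 fell (16.7%), and DNAJB1, 1 of the rises, was not called without either siCtrl library, without the second siSFPQ-3 library or at the same library total (adjusted p from 0.0588 to 0.155, limma).

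Of 31 glycolysis and hypoxia genes, 7 rose (22.6%) and 8 fell (25.8%), near the shares over all features (23.0% and 20.4%). The glucose transporter gene SLC2A3 had 15.9 and 12.2 normalized reads in siCtrl and 215 and 325 with siSFPQ-3, and the hexokinase gene HK2 fell from 881 and 775 to 435 and 317. The rises numbered 2 without the second siCtrl library and 4 without the second siSFPQ-3 library. Of 27 cholesterol synthesis genes, 9 rose (33.3%) and 5 fell (18.5%). Rises were fewer without the second siCtrl library, and falls were fewer without either siCtrl library or the first siSFPQ-3 library. Of 43 nuclear genes of oxidative phosphorylation, 1 rose (2.33%) and 7 fell (16.3%), with a median of -0.13. Fewer fell without either siCtrl library, and the rise was lost without the first.

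Genes of RNA processing moved in both directions. Of 42 splicing factor genes, 6 rose (14.3%) and 11 fell (26.2%), beside 23.0% and 20.4% of all features. MBNL2, a regulator of alternative splicing, had 797 and 785 normalized reads in siCtrl and 2369 and 1883 with siSFPQ-3, PTBP3 had 782 and 739 against 1800.5 and 1805, and its relative PTBP1 fell from 2561 and 2806 to 1784 and 1877. The splicing falls numbered 6 without the first siCtrl library, 2 without the second and 7 without the first siSFPQ-3 library. Of 46 genes of polymerase II pausing and termination, 14 rose (30.4%) and 5 fell (10.9%). The elongation factor gene AFF4 had 1991 and 1943 against 3350.4 and 3498, and POLR2A, the largest subunit of polymerase II, fell from 4855 and 4843 to 3186 and 3626. The pausing list counted 9 rises and 2 falls without either siCtrl library, and 3 falls without the first siSFPQ-3 library.

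Of 32 genes of microRNA processing and effectors, 7 rose (21.9%) and 3 fell (9.38%), beside 23.0% and 20.4% of all features. DICER1, which cuts precursor hairpins, had 940.4 and 977 normalized reads in siCtrl and 1386 and 1646 with siSFPQ-3 and rose by 0.66, and the uridylyltransferase gene TUT4 rose by 0.77. DGCR8, which binds primary transcripts with DROSHA, fell by 0.31 (limma adjusted p = 0.0408). DROSHA itself (log2 fold change -0.18), XPO5, the exporter of precursors (0.14), and AGO2, the effector (0.02), did not pass. The falls numbered 1 without the first and 0 without the second siCtrl library, and 2 without the first siSFPQ-3 library. Of 31 host genes of small nucleolar RNAs, 1 rose and 11 fell, SNHG7 from 3219 and 3627 to 1633 and 1519; 7 fell without the first siCtrl or first siSFPQ-3 library and 5 without the second siCtrl library, and no rise was called without either siCtrl library or without the second siSFPQ-3 library.

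Genes that mark the cell states of small cell lung cancer were counted in separate lists. Of 22 genes of the non-neuroendocrine state, 16 rose and 3 fell (median 0.76). The receptor kinase gene MET had 300.5 and 327 normalized reads in siCtrl and 2403 and 2612 with siSFPQ-3, and CAV1, of caveolae, 19.9 and 19.9 against 194 and 286. CCND1, the cyclin D1 gene, fell from 5305 and 5829 to 2724 and 2257. The neuroendocrine list had 12 tested genes, with 4 rises (33.3%) and 3 falls (25%), beside 23.0% and 20.4% of all features (median -0.02). The neuronal gene RTN1 rose from 117 and 135 to 317 and 393 and CRMP1 fell from 102 and 124 to 48.4 and 36.5. The fall of DLL3, a Notch ligand gene, was not called without either siCtrl library or the second siSFPQ-3 library (adjusted p from 0.0654 to 0.0854, limma), and 1 of the list fell in each of those fits.

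Of 25 Notch, HES and SOX genes, 6 rose (24%) and 11 fell (44%), beside 23.0% and 20.4% of all features. SOX4 rose by 1.20 and the Notch ligand gene JAG2 fell by 0.88. Fewer of the list fell when either siCtrl library or the second siSFPQ-3 library was left out. Of 23 neuronal genes of very long span, 7 rose (30.4%) and 8 fell (34.8%). SOX5 rose from 235 and 239 normalized reads to 1704 and 1566, and the axon guidance receptor gene ROBO1 by 1.06, whereas its relative ROBO2 fell from 11021 and 9005 to 4649.6 and 2906. OPCML fell by 1.78 and CTNNA3 by 1.31. Members of this list lay at both ends of the range of change.

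Markers of other cell types were measured in part. Over all features 23.0% rose and 20.4% fell. Of 13 epithelial genes, 6 were measured and 4 rose (66.7%). Their summed level was 1182 and 1273 in siCtrl and 3543 and 4571 with siSFPQ-3. In 1 of the 6 both siSFPQ-3 libraries lay below both siCtrl libraries without a call, as 37.6% of all features lay below with or without one. ELF3 had 123 and 127 against 997 and 1395, and the keratin gene KRT18 rose by 3.49 on the log2 scale. Of 13 endothelial genes, 4 were measured and 3 rose (75%), PTPRB and FLT1 among them. Their sums were 783 and 849 against 3585 and 3885, and PTPRB made up most of the siSFPQ-3 sums. In 1 of the 4 both siSFPQ-3 libraries lay below both siCtrl libraries, without a call. The defining endothelial genes PECAM1, CDH5 and VWF and the epithelial gene CDH1 were not analysed here. Of 8 measured fibroblast genes, 3 rose and 2 fell (sums 4278 and 4277 against 5293 and 6083), with no fall called without either siCtrl library or without the second siSFPQ-3 library, and of 4 measured immune genes 2 rose (sums 803 and 799.8 against 601 and 838). Of the immune genes, 1 rose without the first siCtrl library and without the second siSFPQ-3 library. The epithelial, endothelial and fibroblast sums were higher in both siSFPQ-3 libraries, as the medians of the matrix and inflammatory lists were, and their part in those results was not tested. The immune sums of the groups overlapped.

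**Figure D3:**
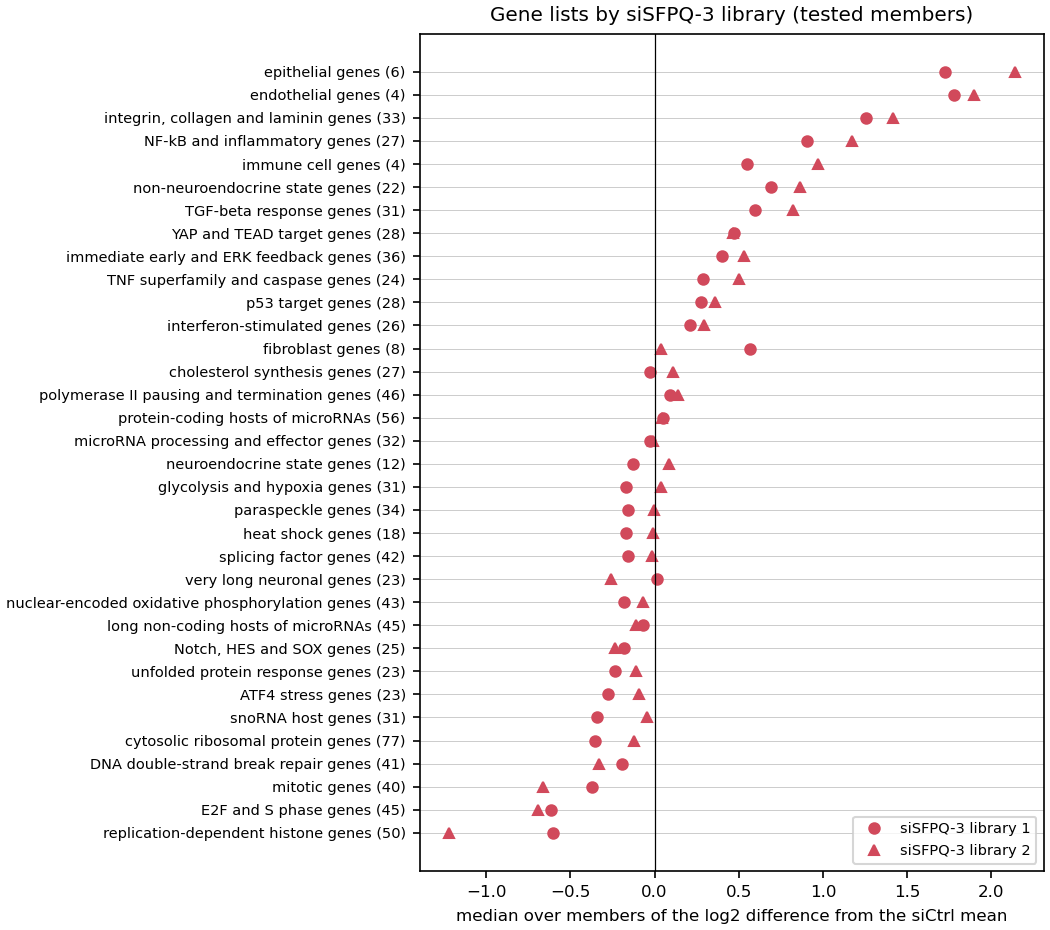
Median over the tested members of each gene list of the log2 difference of each siSFPQ-3 library from the siCtrl mean, with the number of tested members in brackets. Histone, E2F and mitotic genes lie below 0 in both libraries, at medians of -0.84, -0.67 and -0.50, and integrin, collagen and laminin genes above 0, at 1.36.

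Hosts of microRNAs moved in both directions. Of 45 long non-coding hosts, 12 rose and 14 fell, beside 18.3% and 24.3% of all long non-coding RNAs. MIR181A1HG (chromosome 1, 198808003 to 198937429), which carries the miR-181 pair printed above, had 28.7 and 33.2 normalized reads in siCtrl and 442 and 486 with siSFPQ-3. Its log2 fold change was 3.87 (SE 0.18, limma adjusted p = 2.57e-07), and it was low in both siCtrl libraries and high in both siSFPQ-3 libraries. MIR181A2HG, the other host of the same mature forms, had 386 and 426 against 802 and 852 and rose by 1.02. With siSFPQ-2 its values were 422 and 482, and it differed between the siRNAs (log2 difference 0.87, limma adjusted p = 0.0477), a call lost without either siCtrl library (adjusted p up to 0.175 over the alternatives).

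MIR17HG, from which the miR-17-92 microRNAs are cut (chromosome 13, 91347687 to 91354577), had 1491 and 1759 normalized reads in siCtrl and 900.2 and 717 with siSFPQ-3. Both siSFPQ-3 libraries were below both siCtrl libraries, and it fell by 1.01 on the log2 scale (SE 0.13, limma adjusted p = 2.04e-04). H19, an imprinted host of miR-675, fell from 114 and 143 to 51.6 and 36.5, and C1orf61 and MIR1915HG fell by 1.00 and 0.93. MIR4500HG had 76.5 and 75.3 against 366 and 342 (log2 fold change 2.21), and LINC01138 rose by 1.18. MIR4435-2HG and CYTOR, near-identical copies whose values are uncertain, rose by 1.44 and 1.40.

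Of 56 protein-coding hosts, 17 rose and 16 fell, beside 26.4% and 20.2% of all protein-coding genes. VMP1, an autophagy gene whose span holds miR-21 (chromosome 17, 59707654 to 59842255), had 2352 and 1813 normalized reads in siCtrl and 8146 and 9063 with siSFPQ-3 (log2 fold change 2.06, limma adjusted p = 2.81e-06). PDE2A, host of miR-139, had 148 and 201 against 749 and 824, and LPP, host of miR-28, had 5025 and 4486 against 12566 and 10002. These 3 hosts were higher in both siSFPQ-3 libraries than in either siCtrl library.

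Among hosts that fell, SKA2, a kinetochore gene and host of the pair with the shared seed printed above, had 1706 and 1586 normalized reads in siCtrl and 906 and 777 with siSFPQ-3. IGF2, the imprinted growth factor gene, had 4126 and 4526 against 1469 and 727. MEST had 8205 and 7499.6 against 5189.6 and 3847. MCM7, host of a cluster related to miR-17-92, had a log2 fold change of 0.01. The protein-coding hosts counted 8 falls without the first siCtrl library, and 10 rises and 10 falls without the second.

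The siRNAs against SFPQ were compared directly. Of 21773 features, 17 (0.0781%) were higher with siSFPQ-3 than with siSFPQ-2 and 5 (0.0230%) lower (limma, adjusted p under 0.05); siCtrl enters this comparison only through the estimate of spread. No call was made without either siCtrl library, where the 22 adjusted p-values lay between 0.160 and 0.195, or in a fit of these 4 libraries alone (1458 higher and 770 lower at an unadjusted p under 0.05), while DESeq2 called 208 higher and 47 lower. At an unadjusted p under 0.05, 1649 features were higher and 1070 lower in the fit of 6 libraries, while leaving out the first siCtrl library gave 1430 and 779 and leaving out the second gave 1430 and 767. The calls were 90 higher and 95 lower with the first siSFPQ-3 library left out, or 48 and 11 with the second left out.

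ABCB4, a phospholipid transporter gene, had 540.3 and 553 normalized reads in siCtrl, 1266 and 1423 (siSFPQ-2) and 2444 and 2686 with siSFPQ-3, a difference between the siRNAs of 0.93 on the log2 scale (SE 0.11, limma adjusted p = 0.0349; 1.15e-07 to 0.162 over the alternatives). ALPK2 had 305 and 271 in siCtrl, against 168 and 178 (siSFPQ-2) and 422 and 454 (siSFPQ-3) (difference 1.33, limma adjusted p = 0.0264; 1.15e-07 to 0.162). It stood below siCtrl with one siRNA and above it with the other. SLC18A1, the vesicular monoamine transporter gene, had 152 and 185 in siCtrl, against 199.6 and 172 (siSFPQ-2) and 443 and 496 (siSFPQ-3) (difference 1.34).

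KIF2C, a mitotic microtubule depolymerase gene, had 949 and 809.8 normalized reads in siCtrl, against 425 and 331 (siSFPQ-2) and 727 and 726 (siSFPQ-3). CDCA2, a mitotic phosphatase regulator gene, had 1246 and 1159, then 509 and 414, then 874 and 811 in the same order. CKAP2L, of the mitotic spindle, had 328 and 269, then 194 and 159.5, then 399 and 423. In these 3 genes siSFPQ-2 gave the lowest values, and the siSFPQ-3 values lay near or between the others for KIF2C and CDCA2.

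KIF2C was the only gene of the list of 40 mitotic genes called in this comparison, beside 0.0781% of all features called higher. All 40 had a log2 difference above 0 between siSFPQ-3 and siSFPQ-2, with a median of 0.67 (over all features 50.4% lay above 0, with a median of 0.00), and so did 43 of 45 E2F and S phase genes, with a median of 0.46. For the histone genes the median was 0.07, with 32 of 50 above 0. Against the shared siCtrl libraries the median log2 fold changes were -0.50 with siSFPQ-3 and -1.17 with siSFPQ-2 for mitotic genes, -0.67 and -1.05 for E2F and S phase genes, and -0.84 and -1.02 for histone genes.

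In the other direction, ACKR3, a chemokine scavenger receptor gene, had 110.0 and 99.7 normalized reads in siCtrl, against 409 and 485 (siSFPQ-2) and 209 and 207 (siSFPQ-3). KLF2, a transcription factor gene, had 175 and 176, then 326 and 234, then 116 and 67.9, and HS3ST3B1, of heparan sulfate synthesis, 127 and 145, then 124 and 148, then 51.6 and 43.5. HS3ST3B1 was thus at the siCtrl level with siSFPQ-2 and below it with siSFPQ-3. KLF2 and HS3ST3B1 lay below the level that the naming rule asks for and MIR181A2HG ranked behind its 10 largest differences, so all 3 were chosen after their values were seen.

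**Figure D4:**
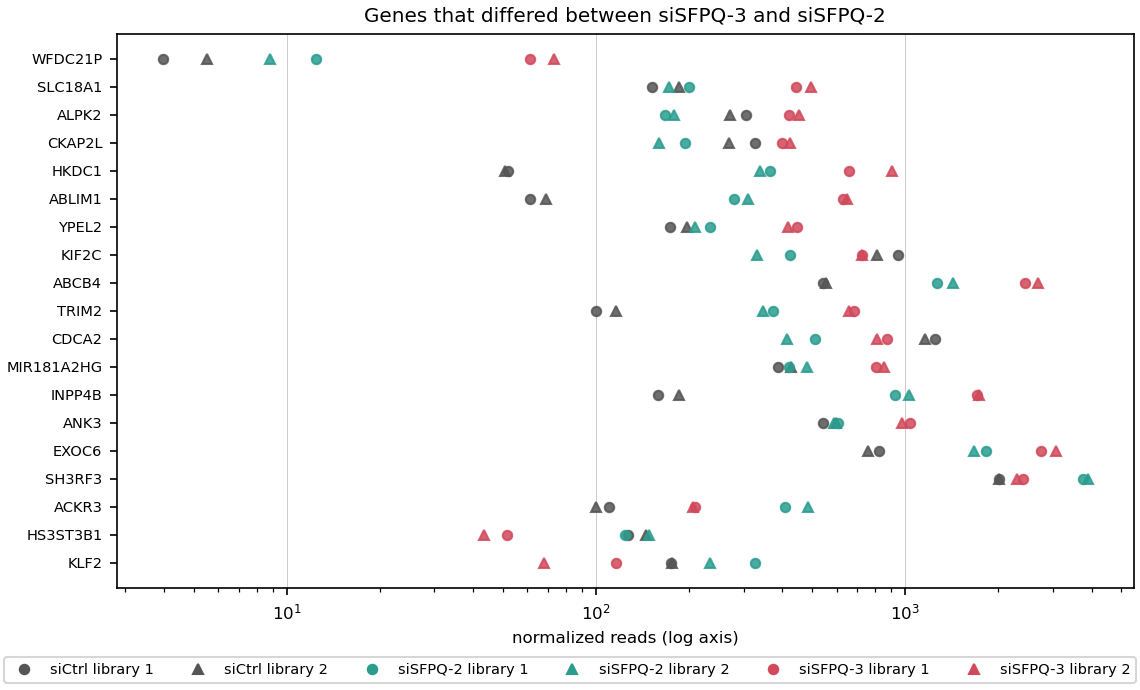
Normalized reads (log axis) in all 6 libraries of the 19 genes with a symbol that differed between siSFPQ-3 and siSFPQ-2, ordered by the size of the difference. The siSFPQ-3 and siSFPQ-2 libraries do not overlap in any of the 19 (22.0% of all features lay wholly above and 19.3% wholly below), and 15 are higher with siSFPQ-3.

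Signal along genes was compared in the deposited profiles, which give 500 bins per gene and the classes up, ns and down that the authors formed from siSFPQ against siCtrl. The mean signal peaked in the bin after bin 100 in every library, where the gene was taken to start, with its end at bin 400. Polymerase is often paused near the start. Signal there was compared with the body, as a log2 ratio, in 14290 genes with enough signal. The ratio set the 15 bins after bin 100 over the body, bins 131 to 400. With every gene taken to fill the same bins, a bin covers more bases in a longer gene. In long genes the 15 bins then reach into the early body, so the ratio does not measure pausing alone. The median of this ratio was -1.70 and -1.66 in the siCtrl libraries and -2.15 and -1.97 in the siSFPQ-3 libraries, so that both siSFPQ-3 libraries were lower. With siSFPQ-2 it was -1.92 and -1.90.

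By limma, 1879 genes (13.1%) had a lower start-to-body ratio with siSFPQ-3 and 155 (1.08%) a higher one. The libraries did not overlap, with siSFPQ-3 below siCtrl, in 54.7% of the genes, and with siSFPQ-3 above in 10.1%. Smaller fits gave almost no calls: leaving out either siCtrl library or the second siSFPQ-3 library gave 0 calls, leaving out the first siSFPQ-3 library gave 1, and a fit of the 4 libraries alone gave 0 (limma). At an unadjusted p under 0.05 the fit of 6 libraries had 534 higher and 4765 lower, and the fit of 4 libraries 4795 in either direction. With the library number (1 or 2) added to the fit of 6 libraries as a block, limma called 2 higher and 0 lower. Unadjusted, 5220 passed in either direction in that fit. The fall was deeper in genes called higher in reads (784 of 2991 called, median -0.55) than in genes not called (911 of 7555, median -0.37) or called lower (118 of 3126, median -0.10). Reads and ratios come from the same libraries. Body signal is the denominator of the ratio and can also count towards a gene's reads, so the classes and the ratio are tied by arithmetic. The difference between these classes was not tested.

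RGS2, a regulator of G protein signalling, had log2 ratios of 2.18 and 1.93 in siCtrl and -0.62 and -0.28 with siSFPQ-3. DUSP6 had 0.36 and -0.08 against -2.28 and -2.25, a change of -2.41 (SE 0.22, limma adjusted p = 0.0285). PDLIM5 had 1.76 and 1.67 against -0.73 and -0.36. In these 3 genes the ratio was lower in both siSFPQ-3 libraries than in both siCtrl libraries.

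NEAT1 had log2 ratios of -1.51 and -1.95 in siCtrl and -2.97 and -2.71 with siSFPQ-3, and ITGAV -1.97 and -1.76 against -3.18 and -2.98. SFPQ (change 0.05), MYC (0.40) and CDK1 (0.09) did not pass. Some genes went the other way: ROBO2 had -3.88 and -3.86 against -2.71 and -2.18, and EID3 had start window sums of 5.69 and 0.790 against 292 and 273. TP53RK-DT and RPL24P4 also had a higher ratio, from start windows listed at 0 in 1 siCtrl library. HSPB1, with start sums of 927 and 54.0 in siCtrl, was listed at 0 there in both siSFPQ-3 libraries.

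**Figure D5:**
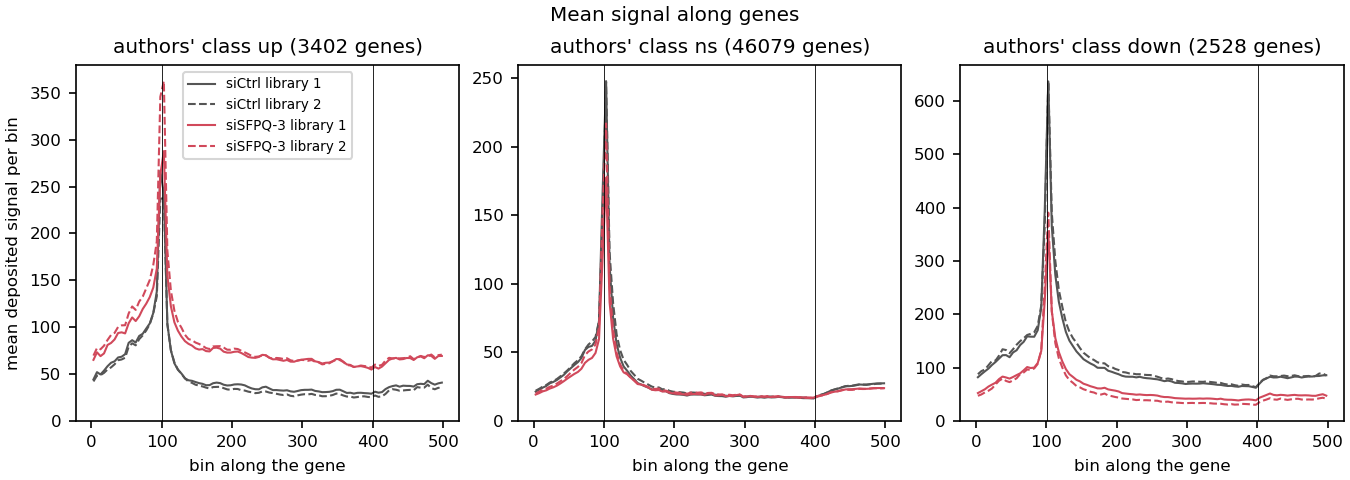
Mean deposited signal per bin (averaged over 5 bins) along genes of the authors' classes up, ns and down in the 4 libraries, with vertical lines at the assumed start and end of the gene. Body signal is higher in both siSFPQ-3 libraries in class up and lower in class down, as the classes were formed. In class ns the peak at the gene start is lower in both siSFPQ-3 libraries (178 and 217 against 248 and 247).

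The second measure, the log2 ratio of the late part of the body (bins 311 to 400) over the early part (bins 131 to 220), gave 0 calls in either direction (limma), with 1454 higher and 1110 lower at an unadjusted p under 0.05. In protein-coding genes over 300 kb the median ratio was -0.12 and -0.16 in siCtrl and -0.35 and -0.45 with siSFPQ-3, both siSFPQ-3 libraries being lower, and the siSFPQ-3 libraries lay below both siCtrl libraries in 52.5% of these 265 genes, beside 23.1% of all genes. They lay above both in 26.6% of all genes.

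ROBO1 had late-to-early log2 ratios of -1.05 and -0.86 in siCtrl and -2.07 and -2.17 with siSFPQ-3. IMMP2L, a mitochondrial peptidase gene of long span, had -0.64 and -0.58 against -1.74 and -2.08, and ROBO2 had 0.29 and 0.28 against -0.62 and -1.45. In these 3 genes the groups did not overlap and the late part was lower with siSFPQ-3, but none passed the threshold (limma adjusted p from 0.0926 to 0.158). CNTNAP2, the longest of them, had 1.11 and 0.94 against 1.42 and 1.36, the other way. Other neuronal genes of very long span differed in direction. NAALADL2 was lower, at -1.13 and -1.21 against -1.65 and -1.52, and WWOX higher, at -3.59 and -3.49 against -3.18 and -3.05. RUNX2 had -2.63 and -2.62 against 0.13 and 0.23 (limma adjusted p = 0.0657).

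Promoters were searched for letters bound by AP-1, the transcription factor dimer of the FOS and JUN families (TGANTCA), and by E2F factors (TTTCCCGC, TTTCGCGC, TTTGCCGC or TTTGGCGC), on both strands. The motifs share no full match. The window ran from 250 bases before to 50 after the RefSeq start, and 12239 tested features had one. An AP-1 match stood in 7.76% of all 27305 promoters and in 4.77% of those of tested features, against 2 of 14 promoters of the largest rises, 1 of 8 of the largest falls, 2 of 24 of integrin, collagen and laminin genes and 1 of 26 of immediate early and ERK feedback genes. An E2F match stood in 3.33% of all promoters and 5.26% of those of tested features, against 20 of 38 E2F and S phase genes, 3 of 34 mitotic genes and 14 of 45 histone genes. A match is a description of letters, not of binding.

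The 250 bases before the start are shown for 3 genes that rose strongly and held an AP-1 match, and for the histone gene H2AC11 with an E2F match, in capitals. TNFRSF9 is from chr1:7940840-7941089 on the minus strand, IL1A from chr2:112784494-112784743 on the minus strand, MIR181A1HG from chr1:198937430-198937679 on the minus strand and H2AC11 from chr6:27132793-27133042 on the plus strand (RefSeq, GRCh38.p14).
TNFRSF9: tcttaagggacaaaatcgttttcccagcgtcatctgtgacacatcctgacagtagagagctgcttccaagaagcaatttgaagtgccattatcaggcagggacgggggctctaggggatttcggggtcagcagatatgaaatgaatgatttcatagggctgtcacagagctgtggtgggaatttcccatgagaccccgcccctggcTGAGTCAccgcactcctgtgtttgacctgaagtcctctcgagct
IL1A: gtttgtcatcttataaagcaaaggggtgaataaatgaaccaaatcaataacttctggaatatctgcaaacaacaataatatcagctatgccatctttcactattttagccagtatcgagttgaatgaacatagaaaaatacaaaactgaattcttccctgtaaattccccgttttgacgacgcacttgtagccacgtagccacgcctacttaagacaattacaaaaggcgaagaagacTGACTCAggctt
MIR181A1HG: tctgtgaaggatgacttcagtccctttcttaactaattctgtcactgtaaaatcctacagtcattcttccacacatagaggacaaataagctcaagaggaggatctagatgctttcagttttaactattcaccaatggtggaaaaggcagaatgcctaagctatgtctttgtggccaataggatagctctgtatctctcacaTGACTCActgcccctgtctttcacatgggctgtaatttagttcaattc
H2AC11: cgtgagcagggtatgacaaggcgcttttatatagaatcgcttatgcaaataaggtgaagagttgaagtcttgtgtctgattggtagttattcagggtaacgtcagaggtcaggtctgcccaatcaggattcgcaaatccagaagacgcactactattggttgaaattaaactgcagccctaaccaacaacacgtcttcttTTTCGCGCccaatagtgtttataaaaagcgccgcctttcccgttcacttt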

How the data were processed

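PRO-seq libraries of 6 SBC-3 samples, 2 for each of siCtrl, siSFPQ-2 and siSFPQ-3, were grouped by their treatment labels. The authors deposited a table of normalized reads per gene, a signal in which each library's values are whole multiples of what 1 read is worth (100% of values whole at a tolerance of 0.1 read), and profiles of signal in 500 bins along each gene. DESeq2 1.38.1, SAMtools 1.3.1, Bowtie2, cutadapt 1.14 and UMI-tools are named, with builds hg38 and dm6, per the submitters' processing notes. No source used here gives the role of dm6, the use of strand, the bin size or the scaling of the profiles. Counting error was small beside the spread between libraries: in a chi-square test of the recovered reads the statistic per degree of freedom was 11.0 for siCtrl and 24.2 for siSFPQ-3, so no 2 libraries of these groups agreed within sampling noise.

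Of 26067 table rows, 240 repeats were dropped, leaving 25827 features, of which 18746 matched a RefSeq symbol, 401 a synonym and 40 an accession. Features with at least 10 normalized reads in at least 2 libraries were tested on log2(value + 1) by limma 3.58.1 (trended, R 4.3.3) in 1 fit of the 3 groups, with Benjamini-Hochberg adjustment. Profile ratios used an offset of 10, a body sum of at least 1000 in every library and a mean start sum of at least 100. edgeR 4.0.16 and DESeq2 1.42.0 were run on recovered reads as alternatives, beside other pseudocounts, filters, scalings, designs and left-out libraries; the fits were tested on simulated data. Figures were drawn with matplotlib 3.10.9.

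The members and gene lists were chosen with earlier results of these data known. Named genes were the target and paraspeckle core, the 15 largest called rises and falls with non-overlapping groups and at least the median level, the 2 smallest p-values in each direction of each list (up to 5 for microRNA hosts), the 10 largest differences in each direction between the siRNAs, under the same conditions of level and overlap, and the 5 largest changes of each profile ratio. Named outside this rule, after their values were seen, were PCNA, E2F1, MCM2, MCM7, CCNB1, CXCL8, NFKB1, RELB, TNFAIP3, NFKBIA, ITGA3, ITGB1, COL1A1, DICER1, DGCR8, DROSHA, XPO5, AGO2, OPCML, CTNNA3, ROBO1, IMMP2L, WWOX, YAP1, NEUROD1, SYP, CHGA, KLF2, HS3ST3B1, EXOC6, ANK3, INPP4B, MIR181A2HG and WFDC21P. Some items are not reported here.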

Additional observations from a re-analysis of the deposited data

Results flagged for a closer look

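The direct comparison of siSFPQ-3 with siSFPQ-2 singled out 19 genes with a symbol, in which the effects of the siRNAs against SFPQ differed by limma's test of the difference (adjusted p from 0.0264 to 0.0492), while no call was made without either siCtrl library. Values are log2 differences, siSFPQ-3 minus siSFPQ-2. Lower with siSFPQ-3 were KLF2 (-1.63), HS3ST3B1 (-1.50), ACKR3 (-1.10) and SH3RF3 (-0.70). Higher by less than 1 were EXOC6 (0.74), ANK3 (0.76), INPP4B (0.81), MIR181A2HG (0.87), CDCA2 (0.87), TRIM2 (0.90), ABCB4 (0.93), KIF2C (0.95) and YPEL2 (0.96). Higher by more than 1 were ABLIM1 (1.12), HKDC1 (1.14), CKAP2L (1.22), ALPK2 (1.33), SLC18A1 (1.34) and WFDC21P (2.56).

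ANK3, which encodes an anchor of membrane proteins to the spectrin skeleton, had 541 and 595 normalized reads in siCtrl, against 604 and 588 (siSFPQ-2) and 1037 and 978 (siSFPQ-3), so that the siSFPQ-3 libraries stood apart from the other groups. INPP4B, a lipid phosphatase gene, was raised with both siRNAs, from 159 and 185 to 929.6 and 1028 (siSFPQ-2) or 1710.1 and 1728 (siSFPQ-3).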

How the results depend on the processing

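Against siCtrl, features lower with siSFPQ-3 ranged from 2082 to 4073 when 1 library was left out, and every other setting kept both counts within 1.5 times of 5007 and 4436, although the same library total gave 4307 higher and 4900 lower. Against siSFPQ-2, the 17 higher and 5 lower became 208 and 47 (DESeq2), 40 and 11 (edgeR), 3 and 0 (filter of 50), 0 and 0 (4 libraries alone), 1 and 0 (same library total), 5 and 0 (pseudocount of 0.1) and 0 to 90 and 0 to 95 (1 library left out). Genes with a lower start-to-body ratio numbered 0 with 4 libraries alone and 0 to 1 with 1 library left out, and those with a higher one 0 in all of these. The late-to-early ratio, with 0 calls in the fit of 6 libraries, gave 42 higher and 28 lower with a body filter 5 times higher, 2 and 1 with the body split at its middle, and 0 to 1 higher and 0 lower with 1 library left out. The causes were not tested.

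The labels number the libraries 1 and 2 in each group, which is too few pairs to show a pairing; the deviations of same-numbered libraries correlated at 0.25 (siCtrl and siSFPQ-3), 0.61 (siSFPQ-2 and siSFPQ-3) and 0.17 (siCtrl and siSFPQ-2). With the replicate number as a block the counts were 5674 and 5428 against siCtrl, 572 and 188 against siSFPQ-2, 2 higher and 0 lower for the start-to-body ratio and 0 for the late-to-early ratio, and PSPC1 passed (adjusted p = 0.0291, limma).

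With 1 library left out SFPQ ran from -0.30 to 0.061, changing sign without the first siSFPQ-3 library, and NONO from -0.021 to 0.029, changing sign without the first siCtrl (-0.021) and the first siSFPQ-3 library (-0.0015). NONO was at -0.070 at the same library total. Neither was called in any of these. Of 164 named genes, 17 had a call against siCtrl in the read counts that changed in at least 1 setting. Calls between the siRNAs and calls of the profile ratios are not part of that count. Each group has 2 libraries, and their spread exceeded counting error in the recovered reads; what limits single tests was not examined.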
